A study of Homo sapiens with 5 samples.

Results

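The G1 cyclins and the kinases they activate were followed in 5 libraries of total RNA from WI-38 cells, a strain of human diploid lung fibroblasts. The 8 genes were chosen by name, for their role, from 48857 genes with an annotated transcript: the D cyclins CCND1, CCND2 and CCND3, the E cyclins CCNE1 and CCNE2, and the kinases CDK4, CDK6 and CDK2. Levels could be compared for 5 of the 8, beside 13104 genes in all. CCND1 carried estimates that had failed, CCNE2 was listed at 0 throughout, and CCNE1 lay below the minimum level. Of the 5 groups, 2 were untreated cells, collected at population doubling level (PDL, the number of doublings in culture) 15 and 55. The other 3 were cells at PDL 15 transfected with a control siRNA, with siRNA against AUF1 or with siRNA against HuR. AUF1 and HuR are proteins that bind AU-rich stretches of mRNA. All 5 groups were grown in the same kind of medium, and each was 1 library. With no replicates, the ratios below describe pairs of libraries and carry no p-value, and the spread within a condition is unknown.

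D cyclins are made in response to growth signals and bind CDK4 or CDK6, which then phosphorylate the retinoblastoma protein and so release E2F transcription factors. E2F raises the E cyclins, which bind CDK2 and carry the cell from G1 into S phase. CDK inhibitors such as p21 and p16 restrain these kinases, and fibroblasts that near the end of their replicative life stop dividing in G1 with inhibitors raised.

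Levels are in FPKM, the fragments on a transcript divided by its length and by library size, so values of different genes can be set side by side. FPKM was summed over the annotated transcripts of a gene, and the authors' 95% bounds of each transcript, which describe the estimate within 1 library, were summed likewise. The number of reads was not given in the sources used here. The coverage signal divided by FPKM, a guide to depth, lay between 1.14 and 1.29 in 4 libraries and was 0.300 with control siRNA. Transcripts assembled from the reads held 80.4% of FPKM times length in the control siRNA library and 25.1% to 29% in the others. Among the siRNA targets, HNRNPD (the AUF1 gene) was at 20.3 FPKM with AUF1 siRNA, against 61.2 with control siRNA and 119 at PDL 15. ELAVL1 (the HuR gene) was at 9.72 with HuR siRNA (bounds 8.59 to 10.8), against 11.8 with control siRNA (9.38 to 14.1) and 16.7 at PDL 15, so the bounds of the siRNA pair overlapped. Of 9 fibroblast markers, 6 to 9 reached 1 FPKM in a library, with VIM and PDGFRA carrying failed estimates, COL1A1 listed at 0 with HuR siRNA, VIM and PDGFRB at 0 with control siRNA, and THY1 at 0 at PDL 15 and PDL 55. The control siRNA library reached 1 FPKM for 6 of them. Of 5 epithelial markers 0 reached 1 FPKM in any library. Summed levels of 3 measured endothelial markers were 0.441 to 2.02 and of 5 blood markers 0.290 to 4.67, highest with control siRNA in both cases. In bulk RNA a smaller share of cells with a transcript cannot be told apart from less of it per cell.

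Because AUF1 and HuR bind AU-rich mRNA, the 3′ untranslated regions (UTRs) of the members were searched on the transcript strand for the core ATTTA and for the longer TTATTTATT, which contains it. The annotation was GENCODE release 29 (GRCh38). In 18960 protein-coding genes, taking the longest 3′ UTR of each, ATTTA was present in 68.2% and TTATTTATT in 8.28%. CDK6 held 26 copies of ATTTA in a 3′ UTR of 10219 nt, where the median of 268 genes of like length (80% to 125%) was 22. It alone of the 7 members searched held TTATTTATT, with 1 copy, which 38.8% of UTRs of like length also did. CCND2 held 8 copies of the core in 5341 nt (median of like length 12), CCND1 held 7 in 3192 nt (median 7), and CCND3 and CDK2 held 2 each (median 2 for both). CCNE1 and CDK4 held 0. For CDK2 the search used ENST00000266970, while ENST00000440311, with a 3′ UTR of 135 nt, held 69.4% to 75.8% of the gene's FPKM. For CCNE1 it used ENST00000262643, which was listed at 0 in every library. For CDK4 it used ENST00000257904, which held 10.4% to 21.6% of the gene's FPKM. For CCND3 it used ENST00000372991, which held 18.7% to 40.2%. The other transcripts of these genes were not searched. The match nearest the stop codon is printed 5′ to 3′ for each member that has one, with the core in capitals, and the TTATTTATT of CDK6 in full. The sequences show which of the searched transcripts carry the element, and a link between it and the levels in the siRNA libraries was not tested. A match is a description of letters and not a binding site.
CCND1 (chr11:69652673-69652693, + strand): aatatataATTTAtagttaag
CCND2 (chr12:4300128-4300148, + strand): tagatcatATTTAaagatctt
CCND3 (chr6:41935502-41935522, - strand): cctctaaaATTTAatgcatga
CDK6 (chr7:92614405-92614425, - strand): tgcattctATTTAgtcttcag
CDK6, TTATTTATT (chr7:92607654-92607678, - strand): catgtatgTTATTTATTtctgaatc
CDK2 (chr12:55972542-55972562, + strand): acaattatATTTAtatttcag

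Cyclin D2 was the member whose level varied most. CCND2 (ENSG00000118971, hg19 chr12:4382938-4414516) was at 1.40 FPKM at PDL 15 (bounds 1.23 to 1.57), 65.6 at PDL 55 (64.3 to 67.0), 7.27 with control siRNA (6.52 to 8.03), 3.23 with AUF1 siRNA (2.97 to 3.49) and 3.67 with HuR siRNA (3.38 to 3.96). The PDL 55 library stood far above the other 4, and the untreated PDL 15 library was the lowest. Neighbours in this order had bounds that did not overlap, apart from HuR siRNA and AUF1 siRNA. In every library the whole level came from 1 of 4 annotated transcripts, ENST00000261254, which is 6480 nt long with 5 exons. Its last exon has 5491 nt, of which 5341 are 3′ UTR.

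At PDL 55 the CCND2 locus also held an assembled transcript without an annotated counterpart. It was 5618 nt long, covered hg19 chr12:4408923-4414540 at the 3′ end of the gene and stood at 55.0 FPKM (53.6 to 56.4), so that the locus summed to 121. The other 4 libraries had no such transcript. CCND2-AS1, an antisense RNA that starts close to CCND2, shares 126 exon bases with it, and strand was not stated for the counting. It was at 0.947 FPKM at PDL 15, 24.6 at PDL 55, 1.41 with control siRNA, 0.422 with AUF1 siRNA and 2.18 with HuR siRNA. The antisense RNA thus also stood highest at PDL 55, and its part in the CCND2 value was not tested.

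Cyclin D3 had its highest level in the same library. CCND3 (ENSG00000112576, hg19 chr6:41902671-42018095) was at 6.79 FPKM at PDL 15 (5.52 to 8.06), 26.9 at PDL 55 (24.9 to 28.8), 9.52 with control siRNA (6.24 to 12.8), 15.7 with AUF1 siRNA (14.2 to 17.2) and 18.1 with HuR siRNA (16.4 to 19.8). Both knockdown libraries lay between the PDL 55 library and the 2 others. Bounds of HuR siRNA and AUF1 siRNA overlapped, and so did those of control siRNA and PDL 15.

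The transcripts that made up CCND3 differed between libraries. ENST00000414200 (1724 nt) was at 2.94, 17.0, 2.95, 11.6 and 10.8 FPKM at PDL 15, at PDL 55 and with control, AUF1 and HuR siRNA. ENST00000372991 (2085 nt), in the same order, was at 1.27, 9.91, 1.95, 4.18 and 7.27. Both start at the proximal promoter, at hg19 positions 41909493 and 41909586, and both were high in the 3 libraries in which the gene was high. ENST00000415497 (1843 nt) starts far upstream, at 42016632, and has a shorter coding sequence in GENCODE, 288 nt against 660 and 876. It was at 2.58 FPKM at PDL 15 and 4.63 with control siRNA, and was listed at 0 at PDL 55 and in both knockdown libraries. The distal start was thus above 0 in the 2 libraries with the lowest CCND3, where it held 38.0% and 48.6% of the gene. An exact 0 can be a failed division of reads between transcripts that overlap. The bases before the proximal start of ENST00000372991 are shown as RefSeq gives them for GRCh38 (chr6:41941849-41942058, - strand), because the transcripts that were higher start at or near it. Capitals mark GGGCGG or its reverse complement CCGCCC, the GC box bound by SP family factors. These 210 bases hold 1 match, and 37.2% of 35116 RefSeq windows hold one over the same positions.
CCND3, proximal start: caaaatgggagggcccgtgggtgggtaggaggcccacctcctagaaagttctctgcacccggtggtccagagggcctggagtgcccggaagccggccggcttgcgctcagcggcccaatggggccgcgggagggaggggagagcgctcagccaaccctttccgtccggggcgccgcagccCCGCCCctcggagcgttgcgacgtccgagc

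Cyclin D1, a main D cyclin of fibroblasts, could not be followed. All 7 annotated transcripts of CCND1 (ENSG00000110092, hg19 chr11:69455855-69469242) were listed at 0 in all 5 libraries. In both untreated libraries and with AUF1 siRNA, 3 of the 7 carried the status FAIL, the mark of an estimate that was not completed. In the other 2 libraries the reads had gone to assembled transcripts over the gene. With HuR siRNA 1 transcript of 2647 nt stood at 210 FPKM (206 to 214). With control siRNA 2 transcripts, which begin upstream at 69440266, stood at 42.6 (39.0 to 46.2) and 134 (128 to 141) and summed to 177. These are the highest values at any member locus, and no value exists for the untreated or AUF1 siRNA cells to set beside them.

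The E cyclins had low listed values. CCNE1 (ENSG00000105173, hg19 chr19:30302901-30315216) was at 0.697 FPKM at PDL 15 (0.471 to 0.923), 1.52 at PDL 55 (1.15 to 1.89), 0.461 with control siRNA (0.112 to 0.809), 0.407 with AUF1 siRNA (0.230 to 0.585) and 0.726 with HuR siRNA (0.481 to 0.972). The PDL 55 library was the highest, with bounds above those of the next, and the other 4 overlapped their neighbours. The mean of 0.763 missed the minimum of 1, so no ratio was computed. In 4 libraries the value was that of ENST00000444983, whose status was LOWDATA (few reads), and with control siRNA it was that of ENST00000357943. CCNE2 (ENSG00000175305) was listed at 0 for all 9 of its annotated transcripts in every library, with status OK or LOWDATA. CCNH, RBX1 and CDK11B, which dividing cells use, were also listed at 0 in all 5 libraries, so these zeros do not show the level of the mRNA.

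The 2 kinases of the D cyclins had the highest mean levels of the measured members, 60.3 FPKM for CDK6 and 48.6 for CDK4, although CCND2 exceeded both at PDL 55. CDK4 (ENSG00000135446, hg19 chr12:58142005-58146164) was at 75.8 FPKM at PDL 15 (70.2 to 81.4), 32.8 at PDL 55 (29.3 to 36.4), 25.8 with control siRNA (18.9 to 32.7), 71.0 with AUF1 siRNA (65.6 to 76.4) and 37.3 with HuR siRNA (33.3 to 41.3). The libraries fell into a high pair, PDL 15 and AUF1 siRNA, whose bounds overlapped, and a low trio, in which each overlapped its neighbour. The 3 annotated transcripts were all higher in that pair than in the trio. ENST00000540325 held 36.5% to 54.7% of the gene, ENST00000312990 held 33.8% to 41.9% and ENST00000257904 held 10.4% to 21.6%. The antisense gene TSPAN31 shares 1078 exon bases with CDK4 in GENCODE 29, where ENST00000257904 has 2076 nt, against 1441 nt as quantified here. The overlap with the quantified transcripts was not computed. TSPAN31 stood at 1.75 to 3.73 FPKM, highest at PDL 55.

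CDK6 was the steadiest member. CDK6 (ENSG00000105810, hg19 chr7:92234235-92465908) was at 71.3 FPKM at PDL 15 (68.6 to 74.0), 36.0 at PDL 55 (34.1 to 37.9), 61.4 with control siRNA (56.2 to 66.7), 69.3 with AUF1 siRNA (66.6 to 72.0) and 63.6 with HuR siRNA (60.9 to 66.2). By this sum the PDL 55 library lay below the other 4. Among those, the bounds of AUF1 siRNA and HuR siRNA did not overlap, while PDL 15 overlapped AUF1 siRNA and HuR siRNA overlapped control siRNA. FPKM times length in kb gives longer transcripts more weight. By that measure CDK6 was at 226 at PDL 15, 160 at PDL 55, 161 with control siRNA, 203 with AUF1 siRNA and 156 with HuR siRNA. The PDL 55 library was then close to control siRNA and not the lowest. Over the 5 libraries the range of CDK6, as a ratio of FPKM + 1 relative to the median gene, was 1.69-fold, against 35.6-fold for CCND2, 4.60-fold for CCND3 and 2.44-fold for CDK4.

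CDK6 was reported as 2 transcripts with the same coding sequence of 978 nt and different ends. ENST00000424848 (1465 nt) ends at the stop codon and was at 59.4, 25.4, 54.4, 59.3 and 57.4 FPKM at PDL 15, at PDL 55 and with control, AUF1 and HuR siRNA. ENST00000265734 (11612 nt) carries the 3′ UTR of 10219 nt with the AU-rich matches above and was at 11.9, 10.6, 7.03, 10.0 and 6.17 in the same order. Most of the lower CDK6 at PDL 55 thus lay in the short model, whose share there was 70.5%, against 83.3% at PDL 15 and 85.5% to 90.3% with siRNA. The long model differed little between PDL 15 (11.5 to 12.4) and PDL 55 (10.2 to 11.0). Assembled transcripts at the locus (42 nt at 26.9 FPKM at PDL 55, with bounds from 0 to 80.8, 1266 nt at 10.5 with control siRNA, 381 nt at 24.2 with AUF1 siRNA) were not counted.

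The 2 models also start at different places, and RefSeq lists a promoter for each. The windows are on GRCh38, - strand, with GC boxes in capitals. The upstream one, chr7:92836595-92836823 before ENST00000424848, holds 3 matches in 229 bases, where 39.8% of RefSeq windows hold any. The downstream one, chr7:92833960-92834209 before ENST00000265734, holds 0 in 250 bases, where 42.6% hold any. Their GC content was 82.1% and 67.6%. Neither holds the E box CACGTG or the E2F motif TTTNNCGC on either strand, which 6.34% and 5.92% of windows of 250 bases do. Of the other members with a RefSeq window of 250 bases, CDK4 holds 3 copies of CACGTG, and CCNE1 and CCND3 hold no CACGTG. None of their windows holds the E2F motif either. GC boxes number 3 for CDK4 and 7 for CCNE1. The CCND3 windows, from upstream to downstream, hold 5, 2 and 0, and the window with 2 is the one shown in part above.
CDK6, start of ENST00000424848: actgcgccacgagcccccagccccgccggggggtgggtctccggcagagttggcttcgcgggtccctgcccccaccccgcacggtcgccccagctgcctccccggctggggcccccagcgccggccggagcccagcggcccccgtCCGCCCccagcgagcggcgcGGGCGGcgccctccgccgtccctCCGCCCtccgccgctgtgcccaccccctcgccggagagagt
CDK6, start of ENST00000265734: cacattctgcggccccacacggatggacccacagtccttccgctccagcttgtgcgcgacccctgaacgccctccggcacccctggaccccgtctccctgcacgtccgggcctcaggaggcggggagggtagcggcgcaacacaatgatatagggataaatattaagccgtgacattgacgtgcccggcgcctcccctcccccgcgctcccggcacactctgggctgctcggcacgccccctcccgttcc

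CDK2, the kinase of the E cyclins, was lower than the D cyclin kinases in every library. CDK2 (ENSG00000123374, hg19 chr12:56360556-56366565) was at 7.74 FPKM at PDL 15 (6.47 to 9.01), 4.44 at PDL 55 (3.47 to 5.41), 13.7 with control siRNA (9.70 to 17.6), 10.4 with AUF1 siRNA (8.88 to 11.9) and 10.1 with HuR siRNA (8.59 to 11.6). The 3 siRNA libraries overlapped one another, and the PDL 55 library lay below all others. ENST00000440311 (1031 nt) held 69.4% to 75.8% of the gene. ENST00000354056 was at 2.25 with control siRNA and listed at 0 elsewhere.

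**Figure D1:**
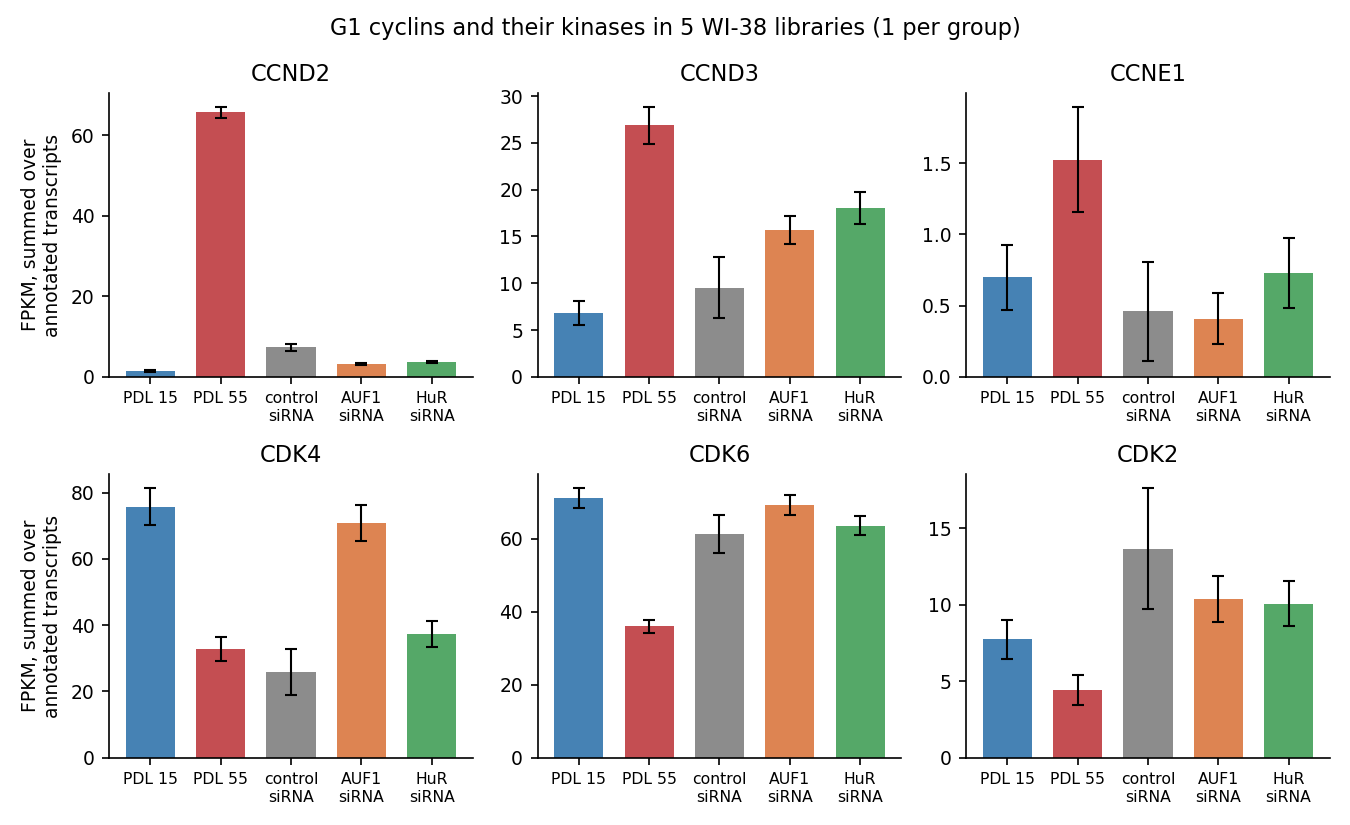
FPKM of the 6 members with values above 0, summed over annotated transcripts, in the 5 libraries (bars) with the summed 95% bounds of the authors (lines). CCND2 and CCND3 are highest at PDL 55, where CDK4, CDK6 and CDK2 are below their PDL 15 level.

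The makeup of the D cyclin pool that could be measured therefore differed between libraries. CCND2 was 17.1% of CCND2 plus CCND3 at PDL 15, 70.9% at PDL 55, 43.3% with control siRNA, 17.0% with AUF1 siRNA and 16.9% with HuR siRNA. CCND3 exceeded CCND2 in 4 libraries, and CCND2 exceeded CCND3 at PDL 55. With control siRNA the bounds of CCND3 (6.24 to 12.8) and CCND2 (6.52 to 8.03) overlapped, so their order there is not resolved. The sum of both was 8.20 FPKM at PDL 15 and 92.5 at PDL 55, while the sum of CDK4 and CDK6 was 147 and 68.8. Cyclin D1 is missing from these sums. CDK6 was 0.940 times CDK4 at PDL 15, 1.10 times at PDL 55, 2.38 times with control siRNA, 0.976 times with AUF1 siRNA and 1.70 times with HuR siRNA.

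Late-passage cells were set against early-passage cells by taking PDL 55 over PDL 15. Ratios are log2 of (FPKM + 1) over (FPKM + 1), a scale that understates low genes, relative to the median of all genes tested. That median was -0.32 as deposited here. A ratio of at least 2-fold was counted. Of the 5 members, 2 were higher and 0 lower at PDL 55, where 9.39% of all genes were higher and 10.1% lower. CCND2 had a log2 ratio of 5.11 (4.98 to 5.25 from the bounds), the 37th highest of 13104. CCND3 had 2.16 (1.83 to 2.51) and was the 319th. The kinases went the other way without reaching 2-fold. CDK4 had -0.87 (-1.13 to -0.61), CDK6 -0.65 (-0.78 to -0.52) and CDK2 -0.37 (-0.85 to 0.10). As deposited, without the median removed, CDK4 passed 2-fold at -1.18. With control siRNA in place of PDL 15 as the reference, CCND2 was at 2.97 and CCND3 at 1.36, CDK4 was at 0.29 and CDK2 at -1.48. With the assembled transcripts added, CDK6 was at 0.15. That value rests on an assembled transcript of 42 nt at PDL 55, at 26.9 FPKM with bounds from 0 to 80.8. By FPKM times length, which uses annotated transcripts alone, CDK6 was at -0.19. It was at -0.97 without the median removed and at -0.88 with 1 main transcript per gene. The size of the CDK6 ratio thus depended on the measure. CCND2 and CCND3 were thus past 2-fold higher at PDL 55 against both references, while the sign of CDK4 depended on which was used.

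The control siRNA library against untreated cells at PDL 15 shows how far 2 libraries without a named knockdown differed. Of the 5 members, 2 were higher and 1 lower, beside 14% and 11.7% of all genes. The deposited median was -0.41. CCND2 had a log2 ratio of 2.19 (1.96 to 2.42), CDK2 1.16 (0.51 to 1.73) and CDK4 -1.11 (-1.64 to -0.67). CCND3 had 0.84 (0.09 to 1.49) and CDK6 0.20 (0.02 to 0.37). Without the median removed, CDK2 was at 0.75. With the median taken over genes whose mean FPKM reached 5, CDK4 was at -0.98. Between 2 libraries without a named knockdown, 3 of the 5 members were thus past 2-fold. The control siRNA library also had the low coverage per FPKM and the high share of assembled transcripts given above, and their part in these ratios was not tested.

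AUF1 siRNA against control siRNA asks which of these mRNAs differ when AUF1 is reduced. Of the 5 members, 1 was higher and 1 lower, beside 10.2% and 11.4% of all genes, with a deposited median of 0.18. CDK4 had a log2 ratio of 1.24 (0.80 to 1.78) and CCND2 -1.15 (-1.37 to -0.92). CCND3 had 0.49 (-0.04 to 1.15), CDK6 -0.01 (-0.18 to 0.17) and CDK2 -0.55 (-1.10 to 0.09). Both calls rested on the reference. Against untreated PDL 15 cells, CDK4 was at 0.11 and CCND2 at 1.02, the reverse sign, while CCND3 was at 1.31. CCND2 was at -0.97 without the median removed. With 1 main transcript per gene CCND3 was at 1.42 against control siRNA. CCND3 thus passed 2-fold against untreated cells and not against control siRNA, where its range included 0, and CDK4 with AUF1 siRNA was close to untreated PDL 15 cells.

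The HuR siRNA library, set against control siRNA, asks the same question for HuR, with the overlap of ELAVL1 bounds given above. Of the 5 members, 0 were higher and 1 lower, beside 10.9% and 11.9% of all genes, with a deposited median of 0.30. CCND2 had a log2 ratio of -1.12 (-1.34 to -0.90), CCND3 0.56 (0.03 to 1.22) and CDK4 0.22 (-0.27 to 0.79). CDK6 had -0.25 (-0.43 to -0.07) and CDK2 -0.71 (-1.26 to -0.07). Against untreated PDL 15 cells CCND2 was at 1.04, the reverse sign, CCND3 at 1.37 and CDK4 at -0.92. CCND2 was at -0.83 without the median removed. With 1 main transcript CCND3 was at 1.23. Both knockdowns share the control siRNA library, so their like signs for CCND2 and CCND3 are not separate observations.

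AUF1 siRNA against HuR siRNA leaves the control library out. Of the 5 members, 1 was higher and 0 lower, beside 6.37% and 6.25% of all genes, with a deposited median of -0.12. CDK4 had a log2 ratio of 1.03 (0.77 to 1.29), and was at 0.91 without the median removed. CDK6 had 0.24 (0.13 to 0.35), CDK2 0.15 (-0.23 to 0.54), CCND2 -0.03 (-0.21 to 0.15) and CCND3 -0.07 (-0.33 to 0.19). CDK4 was the tested member on which the 2 knockdown libraries differed most. The bounds of both D cyclins overlapped between them.

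**Figure D2:**
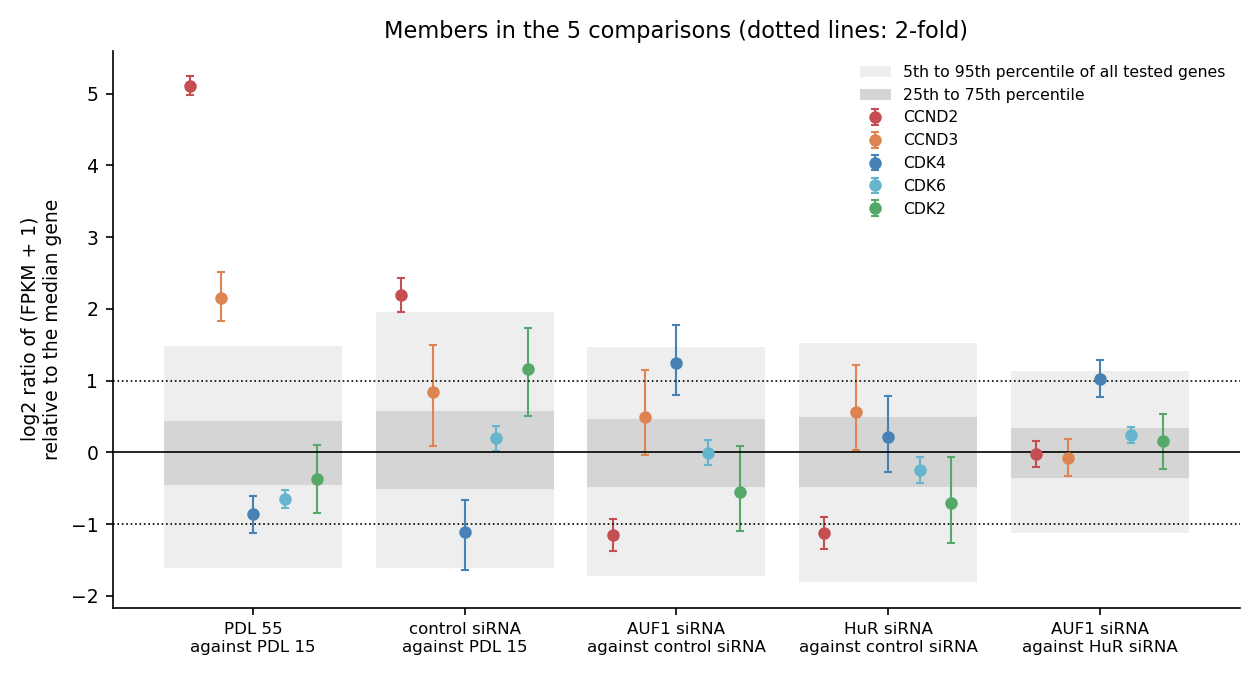
Ratios of the 5 tested members in the 5 comparisons, as log2 of (FPKM + 1) relative to the median gene, with the range the 95% bounds allow (lines), over the spread of all 13104 tested genes (grey). CCND2 and CCND3 lie above the 95th percentile at PDL 55 against PDL 15, and CDK4 is past 2-fold in 3 of the 5 comparisons.

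Around the members, 80 genes of 8 lists were read, of which 62 could be tested. The lists hold CDK inhibitors, pocket proteins, E2F factors, CDK activators, turnover factors and the other cyclins and CDKs. At PDL 55 against PDL 15, 5 of the 62 passed 2-fold upward and 10 downward, where 9.39% and 10.1% of all genes did. Their median log2 ratio was -0.22, beside the 0 of all genes by construction. All 5 tested cyclins and kinases of S phase, G2 and mitosis were lower, with a median of -1.65. CCNB2 was at 1.42 FPKM against 10.3, CCNB1, which drives entry into mitosis, at 4.31 against 22.3, CDK1, their kinase, at 0.268 against 3.95, and CCNA2, the S phase cyclin, at 0.941 against 5.75. CCND2 and CCND3 therefore lay on the opposite side to these 5 genes at PDL 55, with no value for CCND1. None of the 12 other cyclins passed 2-fold in either direction.

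Inhibitors of the G1 kinases differed among themselves at PDL 55. CDKN1A, the gene of p21, was at 351 FPKM against 145, a log2 ratio of 1.58. CDKN1B, the gene of p27, was at 7.37 against 23.3, a ratio of -1.22. CDKN2A, the gene of p16, was listed at 0 in all 5 libraries. As with CCNH, RBX1 and CDK11B above, that 0 does not show the level of its mRNA. CDKN2B (p15) had -0.09. Among the targets and effectors, the pocket protein RBL1 had -1.07 and E2F7, a repressive E2F, 2.63, at 11.5 FPKM against 1.51. SKP2, which marks p27 for destruction, had -1.13, while its partner SKP1 was at 94.2 against 55.8 FPKM (1.06). CDC37, the chaperone partner that folds CDK4 and CDK6, was at 22.7 against 8.27 (1.67), and CDK16 at 78.0 against 31.6 (1.59). CDC25B and PKMYT1 were listed at 0 at PDL 55, against 5.40 and 1.65 FPKM at PDL 15.

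Control siRNA against PDL 15 had 4 of the 62 higher and 7 lower (14% and 11.7% of all genes), with a median of -0.06. CDC37 was at 41.9 FPKM against 8.27 (2.62), E2F7 at 4.83 against 1.51 (1.63), CDK16 at 63.1 against 31.6 (1.39) and CDK13 at 13.9 against 8.22 (1.10). CCNC had -1.48, CCNI -1.42, RBL2 -1.51 and CDKN2B -1.74. E2F3, SKP1 and CDK5 were listed at 0 with control siRNA, against 12.1, 55.8 and 9.13 FPKM at PDL 15. Both this comparison and the previous one use the untreated PDL 15 library as reference, so genes past 2-fold in both are not separate observations.

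AUF1 siRNA against control siRNA had 8 of the 62 higher and 2 lower (10.2% and 11.4% of all genes), with a median of 0.15. CDKN1A was at 392 FPKM against 74.2 (2.20) and CCNI at 331 against 58.6 (2.30). CDC25B, a phosphatase that activates CDKs, was at 28.2 against 3.90 (2.39), CCNF at 8.02 against 2.95 (1.01), CDKN2B at 1.79 against 0.204 (1.03) and DDB1 at 95.5 against 41.1 (1.02). CCNYL1 had -1.51 and CDK13 -1.09. Untreated PDL 15 cells had CDKN2B at 4.35 FPKM, DDB1 at 94.0, CCNI at 211, CDKN1A at 145, CDC25B at 5.40 and CCNF at 2.91. DDB1 was thus about level with AUF1 siRNA there, and CDKN2B lay above both knockdown libraries. The other 2 higher genes, E2F3 and SKP1, were listed at 0 with control siRNA. HuR siRNA against control siRNA had 4 higher and 6 lower (10.9% and 11.9% of all genes), with a median of -0.13. CDKN1A was at 190.3 FPKM (1.05), CCNI at 215 (1.55) and CDKN2B at 3.29 (1.53), while CCNYL1 had -1.94, CCNJ -1.26 and CDK13 -1.24. At PDL 15, CCNI stood at 211 FPKM and CDK13 at 8.22, each closer to HuR siRNA than to control siRNA. CCNYL1 at 5.31 and CCNJ at 4.47 lay above HuR siRNA there too. The sixth lower gene, FBXO4, had -1.20 at 0.473 FPKM against 1.75, with bounds that overlapped, and was named after its value was seen. CCNT2 and CDK16 were listed at 0 with HuR siRNA, against 15.9 and 63.1 FPKM, and E2F3 at 0 with control siRNA.

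AUF1 siRNA against HuR siRNA had 9 of the 62 higher and 2 lower (6.37% and 6.25% of all genes), with a median of 0.14. CDKN1A was at 392 against 190.3 FPKM (1.16), the same side as CDK4, and CDC25B (1.79), CCNF (1.14), CDK15 (1.14), CDK10 (1.12) and CCNJ (1.09) were also higher. TFDP1, the partner of E2F factors, was at 21.8 against 52.8 (-1.12), and E2F3 at 2.32 against 6.58 (-1.08). The other 3 higher genes, SKP1, CCNT2 and CDK16, were listed at 0 with HuR siRNA. Between 2 and 3 of the listed genes past 2-fold in each comparison had a library at 0.

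**Figure D3:**
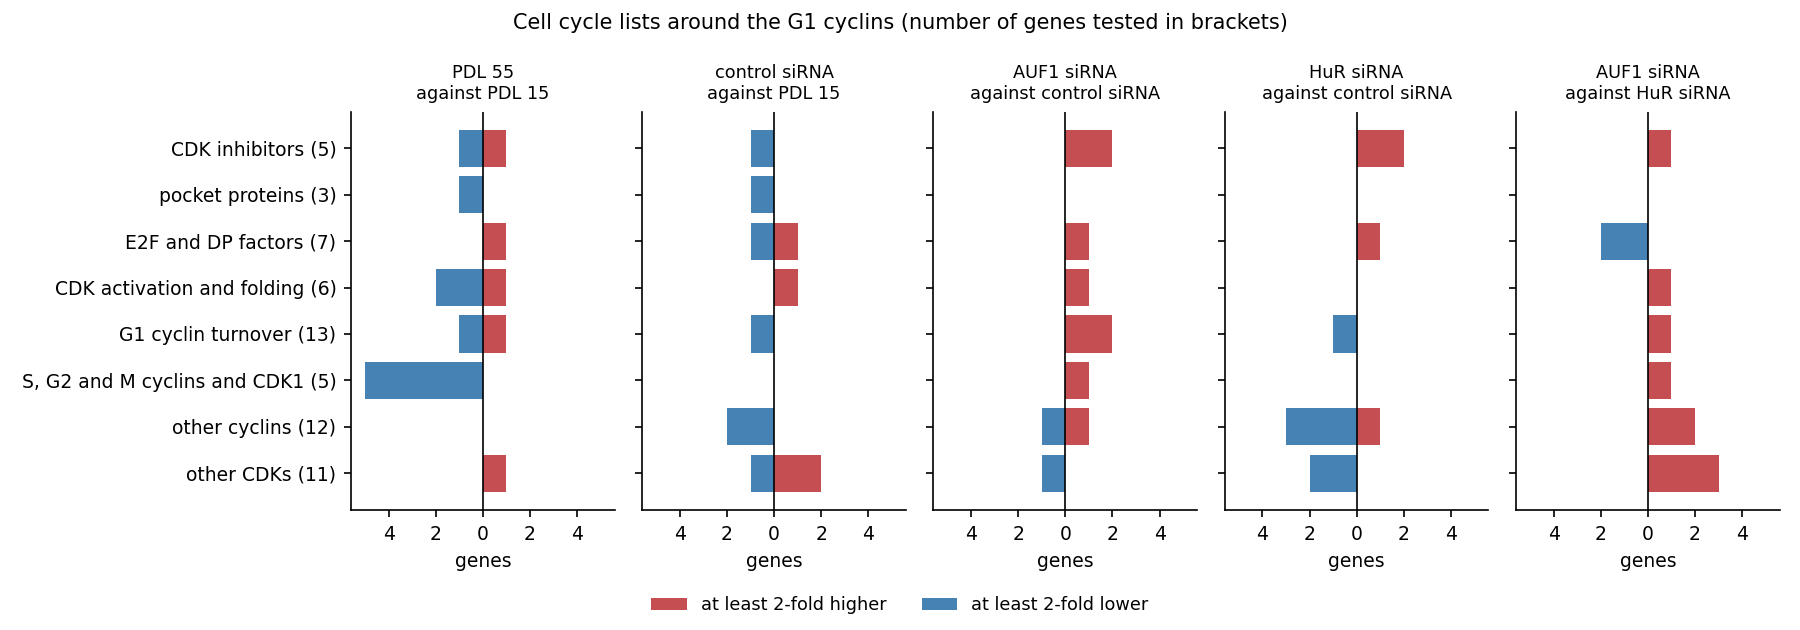
Number of genes of each of 8 cell cycle lists at least 2-fold higher (right, red) or lower (left, blue) relative to the median gene in the 5 comparisons, with the number tested in brackets. The S, G2 and M cyclins with CDK1 stand out at PDL 55, where 5 of 5 are lower. Genes listed at 0 in 1 library are counted.

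Genes with the profile most like each member were sought among 6149 protein-coding genes whose mean FPKM reached 5. Likeness was the root mean square difference of log2 profiles over the 5 libraries, each set relative to its own mean, so that 0 is the same shape. CDK2 had the closest, CCM2 (0.01), CPSF1 (0.06) and MLLT1 (0.07). CCND3 was followed by RAB3B (0.10), SERPINB7 (0.13) and NRG1 (0.15), all highest at PDL 55 and lowest at PDL 15. CDK4 was followed by HS1BP3 (0.17), PTPRS (0.18) and YBX3 (0.18). CCND2 had no close match: FGF13, at 76.2 FPKM at PDL 55 and 4.82 to 13.7 elsewhere, differed by 0.65, and ANKRD42 (0.66) and TMEM41A (0.67) were listed at 0 outside PDL 55. With 5 libraries such likeness is a description of these libraries. CDK6 varied by less than 2-fold and was not matched.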

How the data were processed

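Total RNA of WI-38 fibroblasts was sequenced in 5 libraries, 1 per group, after amplification of cDNA with a kit that takes RNA with and without a polyA tail, per the labels' protocols. The submitters' processing notes name hg19 as the build, and TopHat2 2.0.6, Cufflinks 2.0.2 and Cuffdiff as tools. Each library has a table deposited by the authors that gives each transcript, per the file headers, an FPKM with lower and upper 95% bounds, a coverage signal, a length and a status. The annotation release, strand setting and read number were not given in the sources used here.

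Of 160485 annotated transcripts, 98.7% were given a gene from identifiers in the tables, GENCODE 29 or position. FPKM and bounds were summed per gene with Python 3.11.15 and pandas 2.3.3. Summed bounds tend to be wider than bounds of a sum. Ratios used a pseudocount of 1. Genes needed a mean FPKM of 1 and no transcript of status FAIL, which left out 1428 genes, and small RNAs were left out. The text names all 8 members and those of their 3 highest transcripts that had a measured level. It also names up to 4 genes per list and comparison that were past 2-fold with bounds apart, and the 3 nearest profiles. The members and lists were chosen with earlier results of these data known. With 1 library per group no test was possible. The ratio step was run on simulated data with set fold changes and small noise. The simulation held no failed estimates, no division of reads between transcripts and no spread between cultures. It therefore checks the arithmetic and not the calls. Alternatives were another pseudocount, no centring, assembled transcripts, no LOWDATA transcripts, 1 transcript per gene, FPKM times length, a higher minimum for the median, other call rules and another reference library. Sequences are from GENCODE 29 transcripts and RefSeq promoters on GRCh38, which held 4 of the members (CCND3, CCNE1, CDK4, CDK6). CCNE2 was not searched for motifs.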

Additional observations from a re-analysis of the deposited data

How the results depend on the processing

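Of 96 counts of members under the alternatives, 80 stayed within 1.5 times the reported count and 16 did not. Without the median removed, PDL 55 against PDL 15 had 1 member lower, control siRNA against PDL 15 had 1 higher, AUF1 siRNA and HuR siRNA against control siRNA had 0 lower each, and AUF1 siRNA against HuR siRNA had 0 higher. With 1 main transcript per gene, AUF1 siRNA had 2 higher and HuR siRNA 1 higher against control siRNA, and AUF1 siRNA had 0 higher against HuR siRNA. At 1.5-fold, PDL 55 and HuR siRNA had 2 lower each. With the median over genes of mean FPKM 5 or more, control siRNA had 0 lower. With control siRNA as the reference PDL 55 had 1 lower. With PDL 15 as the reference AUF1 siRNA and HuR siRNA each had 2 higher and 0 lower, and CCND2 reversed, to 1.02 and 1.04. The cause of the reversal was not tested. Of 190 single ratios, 153 stayed within the range their bounds allow. The sign changed for 2 of 68 ratios past 2-fold, the CCND2 values above, and for 14 of 122 within 2-fold, 5 of them with another reference. CCND2 and CCND3 at PDL 55 stayed past 2-fold and higher in all 8 alternatives that give a ratio (2.97 to 5.99 and 1.36 to 2.50). Depth is not known, 1 library per group gives no spread, and a 0 may be a failed estimate. No paired analysis was possible because each group had 1 library.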
